A study of Mus musculus with 24 samples.

Results

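The ADAM, ADAMTS and ADAMTS-like genes were described across the left ventricles of 24 male mice, with 1 Illumina expression array per heart. Members were all probes whose symbol, in the platform's annotation or in the authors' table, was Adam, Adamts or Adamtsl followed by a number and at most 1 letter. This took 123 of 45281 probes, for 58 of 27765 genes that the array's probes name. The groups were 6 knockout hearts labelled low ejection fraction (KO low EF), 7 knockout hearts labelled high ejection fraction (KO high EF) and 11 wild-type hearts (WT), all of mixed genetic background. The knockout was cardiac-specific and removed Ptger4, the gene of the prostaglandin E2 receptor EP4, in a series titled as one on dilated cardiomyopathy. Neither the promoter behind the recombinase nor whether WT mice had it is stated in the labels. EF, the share of blood the ventricle ejects per beat, ran from 13.7 to 34.0% in KO low EF, from 45.9 to 76.4% in KO high EF and from 71.4 to 86.1% in WT hearts. Ages ran from 27 to 33.5 weeks in both KO groups and from 27 to 33 weeks in WT.

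ADAMs are membrane-anchored metalloproteases that cut the outer parts of other membrane proteins, such as growth factors, cytokines and adhesion molecules, and so release them from the cell. Several ADAMs lack a working catalytic site and act in cell adhesion, and many are made mainly in the testis or epididymis. ADAMTS enzymes are secreted, bind the extracellular matrix through thrombospondin repeats, and process procollagens, cut proteoglycans such as versican, or act on cartilage oligomeric matrix protein, fibrillin microfibrils or von Willebrand factor. ADAMTS-like proteins share the matrix-binding parts without the protease domain. In the heart these families are known for valve and outflow tract development and for matrix turnover in disease.

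Values are log2 intensities after background correction and quantile normalization, and the median of every array was 6.77. Members were dim as a class. A probe was kept for testing if it lay above its array's median on at least 6 arrays, which held for 53 member probes of 34 genes, or 43.09% of members against 56.15% of all probes. On all 24 arrays 20 member probes lay above the median, and 39 lay above it on none. Of the kept members, 24 had a mean under 7, near the median, where a difference between groups is compressed and may be too small. The filter's edge was populated, with 4 member probes above the median on 6 or 7 arrays and 5 on 4 or 5 arrays.

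The families differed in how often their probes were above the median. Of 44 ADAMTS probes, 12 were above it on every array, from 8 of 19 genes (Adamts1, Adamts2, Adamts5, Adamts6, Adamts7, Adamts9, Adamts12 and Adamts15). Of 72 ADAM probes, 5 were above it on every array, for Adam9, Adam11, Adam17, Adam19 and Adam23, and 29 on none. The brightest of 4 kept probes for Adam15 was above the median on every array but that of KO high EF replicate 11. Of 7 ADAMTS-like probes, 3 were above it on every array, for Adamtsl2, Adamtsl3 and Adamtsl4. Of the 36 probes for ADAMs known from testis and the reproductive tract, 22 were above the median on no array, none was above it on all, and 6 were kept. Adam10, a widely expressed sheddase, was not kept on either of its 2 probes, whose means were 6.57 and 6.48. The probes of Adam12, Adamts3, Adamts14, Adamts16, Adamts18 and Adamtsl1 were not kept either. A dim probe bounds only what that probe can detect. Near-identical copies such as Adam1a and Adam1b, Adam4 and Adam4b, or Adam6a and Adam6b may share signal, and all were dim.

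**Figure D1:**
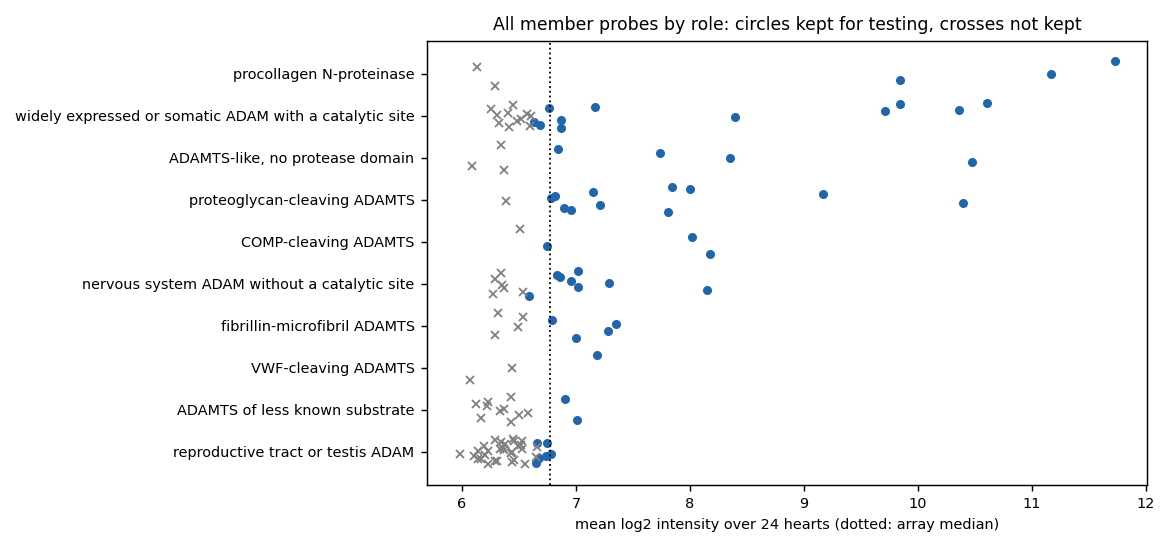
Mean log2 intensity of each of the 123 member probes over 24 hearts (horizontal axis), by the role of its gene. Circles are the 53 probes kept for testing, crosses those not kept, and the dotted line is the array median of 6.77. All probes of reproductive tract or testis ADAMs lie between 5.98 and 6.78, nearly all of them below the median.

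Raw median intensity per array ran from 105.6 to 154.7. The array of KO high EF replicate 11 stood apart, with a median correlation to the other arrays of 0.7777, against 0.968 to 0.9862 for the rest, and counts of calls between groups are also given without it where they change. Atrial markers (Myl7, Sln, Myl4 and Bmp10) had a mean level between 9.30 and 11.45 in WT replicates 8 to 11 and of 8.45 in KO high EF replicate 11, against 6.56 to 7.37 in the other 19 hearts, which goes against the left ventricular label. Counts of member calls in the group comparisons are also given without these 5 hearts. The arrays were taken to lie on 4 chips, inferred from the prefix of the array labels, as no label states the chip. Chip 4 held 3 KO high EF and 3 WT hearts and no KO low EF heart, and the other chips held all 3 groups. The kept Ptger4 probe lay near the array median and gave log2 differences from WT of -0.04 ± 0.14 in KO low EF hearts (adjusted p = 0.901) and 0.20 ± 0.13 in KO high EF (adjusted p = 0.338), so the deletion could not be checked on it. Whole ventricle was measured, in which a change in the number of cells of a type and a change in RNA per cell cannot be told apart.

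The members with the largest differences from WT below are Adamts2, Adamtsl2, Adamts12 and Adam19, and their start regions are shown for that reason. RefSeq's promoter table (GRCm38.p6) held 34 windows of 32 member genes, each 250 bases before to 50 after an annotated start. Of the genes that changed in any group comparison, 5 had a window, the fifth being Adamts20. The strand of each window shown is plus. The Adamts2 window is chr11:50601835-50602134, Adamtsl2 is chr2:27079129-27079428, Adamts12 is chr15:11064523-11064822, and the Adam19 window with motif matches is chr11:46055734-46056033, 1 of 3 for that gene. Capitals mark matches on either strand to the TATA box core (TATAAA), the GC box bound by Sp1-type factors (GGGCGG), the AP-1 site (TGANTCA) and the TEAD site (GGAATG).
Adamts2: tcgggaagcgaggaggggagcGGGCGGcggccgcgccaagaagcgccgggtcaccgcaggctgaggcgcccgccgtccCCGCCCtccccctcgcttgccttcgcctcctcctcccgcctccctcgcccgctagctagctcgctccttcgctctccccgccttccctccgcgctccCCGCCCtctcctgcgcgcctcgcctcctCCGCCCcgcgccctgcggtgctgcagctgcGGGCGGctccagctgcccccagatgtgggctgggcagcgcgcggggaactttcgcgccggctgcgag
Adamtsl2: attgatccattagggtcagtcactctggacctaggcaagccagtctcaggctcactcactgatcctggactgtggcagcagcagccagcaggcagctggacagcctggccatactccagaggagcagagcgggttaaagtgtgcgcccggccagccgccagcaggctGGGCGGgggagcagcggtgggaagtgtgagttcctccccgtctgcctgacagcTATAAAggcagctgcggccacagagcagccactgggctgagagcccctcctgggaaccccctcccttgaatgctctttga
Adamts12: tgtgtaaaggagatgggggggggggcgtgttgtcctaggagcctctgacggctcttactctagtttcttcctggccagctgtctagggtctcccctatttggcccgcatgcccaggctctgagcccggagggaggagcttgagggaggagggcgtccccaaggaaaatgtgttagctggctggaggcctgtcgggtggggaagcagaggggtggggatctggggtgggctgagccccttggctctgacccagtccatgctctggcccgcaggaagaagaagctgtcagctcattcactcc
Adam19: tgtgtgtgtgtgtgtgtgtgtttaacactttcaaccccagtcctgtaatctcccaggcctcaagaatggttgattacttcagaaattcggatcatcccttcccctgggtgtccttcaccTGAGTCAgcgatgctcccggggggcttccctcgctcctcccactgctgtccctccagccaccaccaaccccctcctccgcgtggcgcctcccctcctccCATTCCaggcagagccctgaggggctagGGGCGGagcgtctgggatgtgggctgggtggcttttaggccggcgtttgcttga

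These matches are descriptions of letters in the windows. The Adamts2 window held 5 GC boxes and no match to the other motifs, with 77.33% G and C against a median of 52.67% over all 32851 windows of the table. The Adamtsl2 window held a TATA box core 30 bases before the start and a GC box at -83. The Adam19 window held an AP-1 match at -131, a TEAD match at -32 and a GC box at -4, and the Adamts12 window held none of the 4 motifs. Over all windows, 35.7% held a GC box, 13.6% a TATA box core, 7.81% an AP-1 site and 14.7% a TEAD site. Among the 34 member windows, 17 held a GC box, 6 a TATA box core, 5 an AP-1 site and 3 a TEAD site.

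In KO low EF hearts against WT, 14 of 53 member probes changed, which is 26.4% beside 24.4% of all kept probes. Of these, 11 were higher and 3 lower, beside 12.1% and 12.3% of all kept probes. As a class the members therefore changed about as often as the array did. In KO high EF hearts against WT, 9 member probes changed, or 17.0% beside 14.4% of all kept probes. Of these, 8 were higher and 1 lower, beside 8.50% and 5.90% of all kept probes. The 53 probes had a median log2 difference of 0.09 for KO low EF and 0.10 for KO high EF, beside -0.01 and 0.01 over all kept probes. The ranges of hearts were apart from WT for 8 higher member probes and 1 lower of 53 in KO low EF, beside 6.16% of all probes for each direction. They were apart for 5 higher member probes of 53 in KO high EF, beside 2.16% of all probes higher. Both counts of higher probes include 3 probes of Adamts2, and the others in KO high EF were those of Adamtsl2 and Adam19. Without replicate 11, 17 member probes changed in KO low EF hearts and 9 in KO high EF, beside 33.4% and 18.8% of all probes. Without the 5 hearts with atrial markers, 16 member probes changed in KO low EF, among them all 14, and 8 in KO high EF, beside 30.6% and 16.0% of all probes. "Changed", "rose" and "fell" are used of an adjusted p under 0.05 from limma over all 25425 kept probes.

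**Figure D2:**
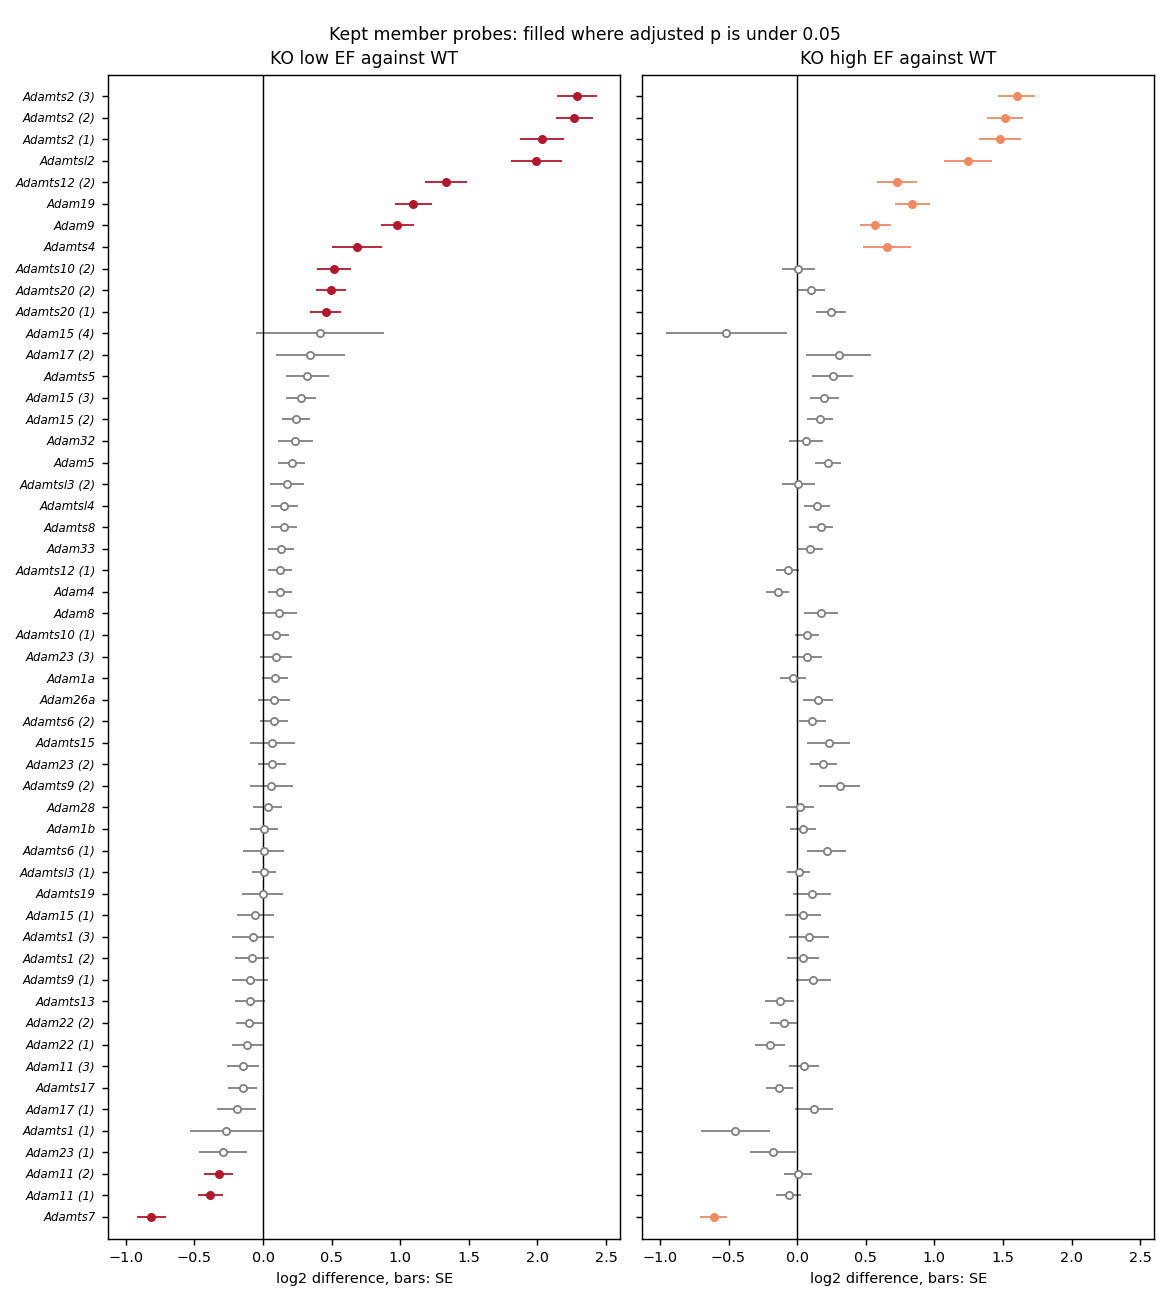
Log2 difference from WT with its SE for the 53 kept member probes, in KO low EF hearts (left) and KO high EF hearts (right), ordered by the left panel. Filled points have an adjusted p under 0.05. The 3 Adamts2 probes and Adamtsl2 lie at the top of both panels, and Adamts7 lies at the bottom of the left one at -0.81.

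Adamts2, the main procollagen N-proteinase, which trims the amino-terminal propeptides of fibrillar procollagens, had the largest rise of all members. On its probe with the smallest p (ILMN_1226259), the lowest, median and highest values were 12.28, 12.41 and 12.69 in KO low EF hearts, 11.33, 11.48 and 12.35 in KO high EF, and 9.74, 10.20 and 10.59 in WT hearts. All 6 KO low EF and all 7 KO high EF hearts lay above all 11 WT hearts. The log2 difference was 2.27 ± 0.14 for KO low EF against WT, or 4.82-fold (adjusted p = 1.54e-11), and 1.52 ± 0.13 in KO high EF, or 2.86-fold (adjusted p = 1.94e-08). Both other Adamts2 probes showed ranges apart from WT in both KO groups. Their log2 differences were 2.29 and 2.03 for KO low EF, and 1.60 and 1.48 for KO high EF. Within single chips the KO low EF difference ran from 2.06 to 2.30 on the first probe, and without the hearts with atrial markers it was 2.35 ± 0.14. Adamts3 and Adamts14, the other procollagen N-proteinases, were above the array median on no array.

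Adamtsl2, which has no protease domain and is known to bind fibrillin microfibrils and a latent TGF-beta binding protein, rose next most. Its values were 8.62, 9.53 and 10.09 (lowest, median, highest) in KO low EF hearts, 8.10, 8.93 and 9.33 in KO high EF, and 7.12, 7.49 and 7.77 in WT hearts. No KO heart overlapped WT. The log2 difference was 1.99 ± 0.18 for KO low EF against WT, or 3.98-fold (adjusted p = 1.13e-08), and 1.25 ± 0.18 in KO high EF, or 2.37-fold (adjusted p = 1.89e-05). On the authors' deposited normalized values the KO low EF difference was smaller, at 1.16, and was still past the threshold. Of the other ADAMTS-like genes, Adamtsl3 and Adamtsl4 gave no call in either KO group, and Adamtsl1 was not kept.

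Adamts12 and Adamts7, a related pair known to cut cartilage oligomeric matrix protein, changed in opposite directions. Adamts12 had 8.69, 8.99 and 9.29 (lowest, median, highest) in KO low EF hearts, 7.54, 8.47 and 8.84 in KO high EF, and 7.19, 7.73 and 7.95 in WT hearts. KO low EF did not overlap WT, and in KO high EF 6 of 7 hearts lay above all WT hearts, the exception being replicate 11. Adamts12 rose by a log2 difference of 1.33 ± 0.15 in KO low EF (2.52-fold, adjusted p = 2.34e-07) and of 0.73 ± 0.14 in KO high EF (1.66-fold, adjusted p = 0.000863). A dimmer kept probe of Adamts12, near the array median, gave 0.13 and -0.07 and was not called, so the probes of this gene disagree.

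Adamts7 had 7.38, 7.55 and 7.87 (lowest, median, highest) in KO low EF hearts, 7.45, 7.82 and 8.27 in KO high EF, and 8.10, 8.40 and 8.64 in WT hearts. All KO low EF hearts and 6 of 7 KO high EF hearts lay below all WT hearts, and replicate 11 was again the exception. The log2 difference was -0.81 ± 0.10 for KO low EF against WT (adjusted p = 1.24e-06) and -0.61 ± 0.10 in KO high EF (adjusted p = 0.000102). On the authors' deposited normalized values the KO low EF differences were 0.72 for Adamts12 and -0.40 for Adamts7, both still past the threshold. Comp itself, the shared substrate, rose with a log2 difference of 4.39 ± 0.65 in KO low EF (adjusted p = 1.06e-05), over a WT range from 7.08 to 10.49.

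Among ADAMs with a catalytic site, Adam19 and Adam9 rose in both KO groups. Adam19, which takes part in shedding neuregulins and is needed in mice for heart valve and septum development, had 10.05, 10.30 and 10.98 (lowest, median, highest) in KO low EF hearts, 9.87, 10.21 and 10.44 in KO high EF, and 8.92, 9.31 and 9.81 in WT hearts. Neither KO group overlapped WT. Its log2 difference was 1.09 ± 0.13 for KO low EF against WT (2.14-fold, adjusted p = 7.18e-07) and 0.84 ± 0.13 in KO high EF (1.79-fold, adjusted p = 4.72e-05). Within single chips the KO low EF difference ran from 0.70 to 1.16.

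Adam9, a sheddase able to cut heparin-binding EGF-like growth factor, had 10.50, 11.01 and 11.12 in KO low EF hearts, 10.14, 10.39 and 11.16 in KO high EF, and 9.75, 9.93 and 10.14 in WT hearts, in the order lowest, median and highest. KO low EF lay apart from WT, and 6 of 7 KO high EF hearts lay above all WT hearts. It rose by a log2 difference of 0.98 ± 0.12 in KO low EF (1.97-fold, adjusted p = 5.73e-07) and of 0.57 ± 0.11 in KO high EF (1.48-fold, adjusted p = 0.000858). The KO high EF call was lost when arrays were scaled to a common median (adjusted p = 0.171).

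Adam15, an ADAM with an integrin-binding disintegrin domain, turned on 1 array. Its bright probe had 11.00, 11.08 and 11.14 (lowest, median, highest) in KO low EF hearts, 6.02, 10.86 and 10.93 in KO high EF, and 10.30, 10.60 and 11.05 in WT hearts. The 6.02 was replicate 11, and without it KO high EF began at 10.65. With that array the KO low EF difference from WT was 0.42 ± 0.47 (adjusted p = 0.628), and without it 0.42 ± 0.08 (adjusted p = 0.000242), since the array widens the spread that all groups share. For all KO hearts against WT the difference was -0.05 with the array and 0.29 without it (adjusted p = 0.0013). With all arrays no other kept Adam15 probe was called. The next brightest ran from 6.76 to 7.28 in KO low EF hearts and from 6.86 to 7.49 in WT hearts. The remaining kept probes lay near the array median, with KO low EF means above the WT means.

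**Figure D3:**
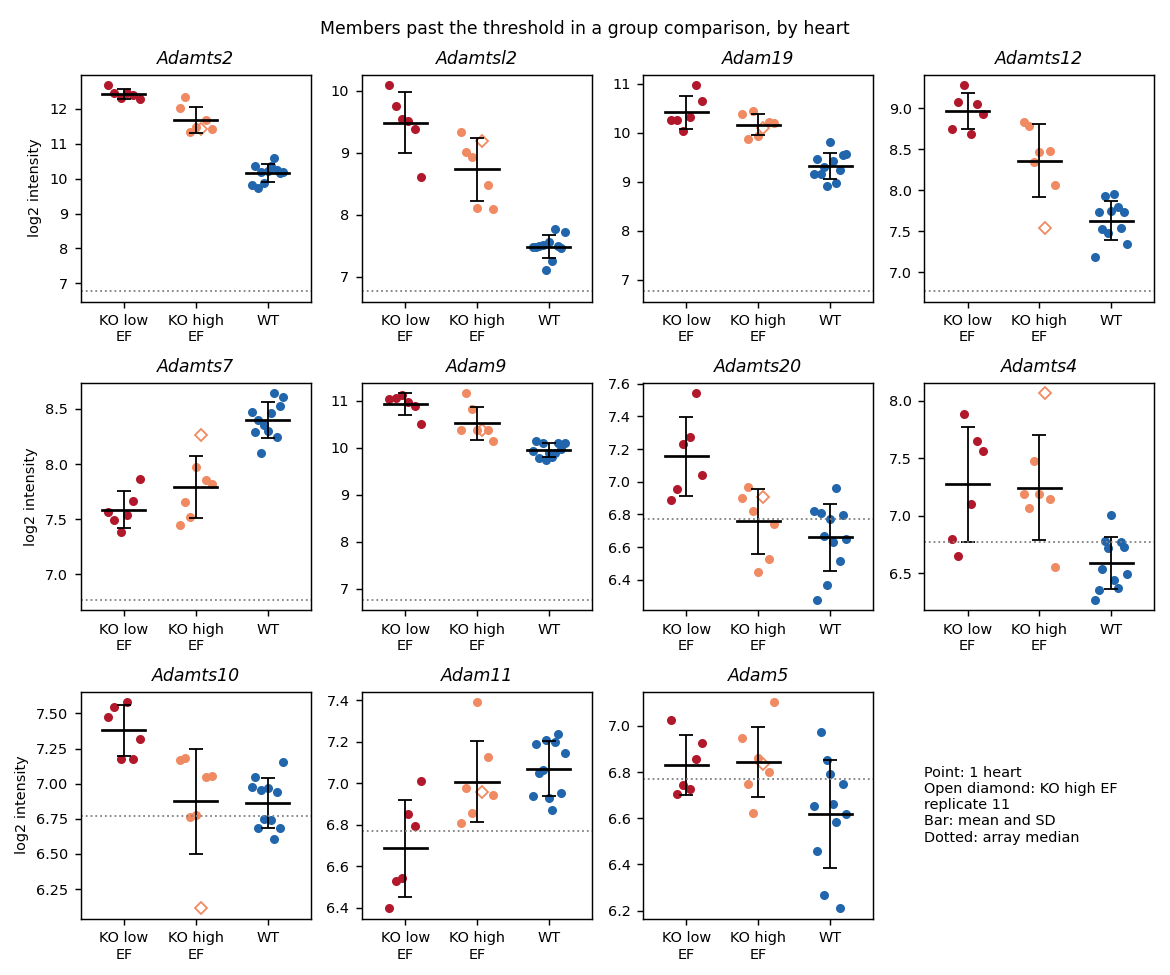
Log2 intensity by heart for the 11 genes called in a group comparison, for KO low EF (6 hearts), KO high EF (7 hearts) and WT (11 hearts), with the mean and SD as bars and the array median of 6.77 dotted. The vertical axes differ and do not start at 0. Adamts2, Adamtsl2 and Adam19 show no overlap of either KO group with WT, and the open diamond is KO high EF replicate 11.

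The other members that changed lay near the array median on the probes whose values are listed. A second called probe of Adam11 had a mean of 7.29 and was above the median on all 24 arrays. Adamts4, an aggrecanase that also cuts versican, had 6.65, 7.33 and 7.88 (lowest, median, highest) in KO low EF hearts, 6.56, 7.19 and 8.07 in KO high EF, and 6.27, 6.54 and 7.01 in WT hearts. The groups overlapped, with 4 of 6 KO low EF and 6 of 7 KO high EF hearts above all WT hearts. Adamts4 rose by 0.68 ± 0.18 in KO low EF hearts (adjusted p = 0.00632) and 0.65 ± 0.17 in KO high EF (adjusted p = 0.0113) on the log2 scale, and the KO low EF difference ran from 0.02 on chip 3 to 1.27 on chip 2. Without the hearts with atrial markers the KO high EF difference was 0.52 (adjusted p = 0.0516).

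Adamts20, a versican-cutting relative of Adamts9 known from mouse coat pigmentation, was called in KO low EF on both kept probes, with log2 differences of 0.50 ± 0.11 (adjusted p = 0.000963) and 0.46 ± 0.11 (adjusted p = 0.003). On the first probe the values were 6.89, 7.14 and 7.54 in KO low EF hearts, 6.45, 6.82 and 6.97 in KO high EF, and 6.28, 6.67 and 6.96 in WT hearts (lowest, median, highest). KO low EF and WT hearts overlapped, and the KO high EF difference of 0.10 ± 0.10 was not called (adjusted p = 0.567).

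Adamts10, which acts on fibrillin microfibrils, had 7.18, 7.40 and 7.58 in KO low EF hearts, 6.11, 7.05 and 7.19 in KO high EF, and 6.61, 6.94 and 7.15 in WT hearts (lowest, median, highest). All KO low EF hearts lay above all WT hearts, by a log2 difference of 0.52 ± 0.12 (adjusted p = 0.0026), and the KO high EF difference was 0.01 ± 0.12 (adjusted p = 0.97), or 0.14 without replicate 11 (adjusted p = 0.347). Its other kept probe gave 0.10 in KO low EF and was not called. Adamts6, its closest relative, gave no call on 2 probes that were above the median on every array.

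Adam11, a nervous system ADAM without a catalytic site, fell in KO low EF on 2 of 3 kept probes. On one the values were 6.40, 6.67 and 7.01 in KO low EF hearts, 6.81, 6.96 and 7.39 in KO high EF, and 6.87, 7.06 and 7.24 in WT hearts (lowest, median, highest), with 5 of 6 KO low EF hearts below all WT hearts. The log2 differences in KO low EF were -0.38 ± 0.09 (adjusted p = 0.00273) and -0.32 ± 0.10 (adjusted p = 0.0216, and 0.0774 with chip as a block). Adam22 and Adam23, the other members of that class, were not called in either KO group.

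Adam5, a reproductive tract ADAM, was called when all KO hearts were set against WT, with a log2 difference of 0.22 ± 0.08 (adjusted p = 0.0446). In that comparison 13 member probes changed, or 24.5% beside 25.4% of all kept probes. Of these, 11 were higher and 2 lower, beside 13.1% and 12.3% of all kept probes. Without replicate 11 the count was 17, beside 33.7% of all probes. Without the 5 hearts with atrial markers it was 15, beside 29.2% of all probes, and 11 of the 13 were among them. There the Adam11 call was lost (adjusted p = 0.14), as was that of Adam5 (adjusted p = 0.155), and Adamts10 was called (0.32, adjusted p = 0.00462). The Adam5 values were 6.71, 6.80 and 7.03 in KO low EF hearts, 6.62, 6.83 and 7.10 in KO high EF, and 6.21, 6.65 and 6.97 in WT hearts (lowest, median, highest), which overlapped throughout. This call was lost in 24 of 37 alternatives that could give a value. For the dim probes with values listed, the KO low EF differences on the authors' deposited normalized values were 0.22 for Adamts4, 0.15 for Adamts20, 0.17 for Adamts10 and -0.11 for Adam11. These differences were smaller than those above and still past the threshold.

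Several well-known members gave no call in either KO group. Adam17, the sheddase that releases TNF, had on its bright probe 9.22, 9.53 and 9.74 (lowest, median, highest) in KO low EF hearts, 9.47, 9.77 and 10.46 in KO high EF, and 8.92, 9.80 and 9.99 in WT hearts. The groups overlapped, and the log2 difference was -0.19 ± 0.14 for KO low EF against WT (adjusted p = 0.41). With array weights in limma that difference was called (adjusted p = 0.0405). The lowest WT value was that of replicate 1, and the next lowest WT heart had 9.57. On a dimmer probe of Adam17 the KO low EF mean lay above the WT mean, so its probes differ in direction. That probe ran from 8.33 to 8.66 in KO low EF hearts, from 7.85 to 9.32 in KO high EF and from 6.63 to 8.84 in WT hearts, and was not called. Adamts9, a versican-cutting enzyme needed for heart development, differed by 0.06 ± 0.16 in KO low EF hearts (adjusted p = 0.864) and 0.31 ± 0.15 in KO high EF (adjusted p = 0.18), the second being 0.16 without replicate 11 (adjusted p = 0.4). Adamts5, another aggrecanase, differed by 0.32 ± 0.16 in KO low EF (adjusted p = 0.151), and without replicate 11 that difference was called (adjusted p = 0.0474). Adamts1, which also cuts versican, differed by -0.27 ± 0.26 in KO low EF on its brightest kept probe (adjusted p = 0.567). Without replicate 11 that difference was -0.27 ± 0.15 (adjusted p = 0.184). Adamts8 and Adam8 differed by 0.15 ± 0.09 and 0.12 ± 0.13 in KO low EF, and neither was called. A missed threshold does not show equal levels, and these standard errors leave room for small differences. Adamts13, the enzyme that cuts von Willebrand factor, was kept on 1 of 3 probes and was not called.

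Between the KO groups, 5 member probes were higher in KO low EF than in KO high EF hearts and none was lower. This is 9.43%, beside 2.92% of all kept probes called, 0.932% higher and 1.99% lower. They were 2 Adamts2 probes, Adamtsl2, Adamts12 and Adamts10. The log2 difference, KO low EF over KO high EF, was 0.75 ± 0.15 for Adamts2 (adjusted p = 0.00797), 0.75 ± 0.20 for Adamtsl2 (adjusted p = 0.0432), 0.61 ± 0.17 for Adamts12 (adjusted p = 0.0458) and 0.51 ± 0.14 for Adamts10 (adjusted p = 0.0422). The ranges of both KO groups overlapped for each of these genes, and Adamts2 reached 12.35 in KO high EF beside a lowest value of 12.28 in KO low EF.

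These calls were less firm than those against WT. Without replicate 11 the count was 6, beside 4.28% of all probes, and Adamts20 was called (0.42, adjusted p = 0.0413). Without the hearts with atrial markers 4 member probes were called, beside 3.30% of all probes, and the Adamts12 call was lost (adjusted p = 0.0654). With chip as a block only the first Adamts2 probe stayed past the threshold, with a log2 difference of 0.66 (adjusted p = 0.0401). Within chips its difference was 0.09, 0.26 and 1.11, the largest being on chip 3. The 0.09 is that of chip 1, with 1 KO low EF heart against 1 KO high EF heart. The adjusted p with chip as a block was 0.202 for Adamtsl2, 0.256 for Adamts12 and 0.113 for Adamts10. Adam19, Adam9 and Adamts7 differed between KO low EF and KO high EF by 0.25 ± 0.15, 0.41 ± 0.13 and -0.21 ± 0.11, and none of these was called (adjusted p = 0.456, 0.0886 and 0.429).

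Within the 13 KO hearts the level was also fitted on EF, a measure that the group labels are based on, so slopes and group differences share information. Slopes are log2 units per 10 points of EF, and 9 member probes were called, beside 4.38% of all kept probes. As EF increased the level was higher for 2 of them and lower for 7, beside 2.92% and 1.46% of all kept probes. Adamtsl2 had a slope of -0.27 ± 0.04 (adjusted p = 0.00101), Adamts2 of -0.23 ± 0.04 (adjusted p = 0.00066), Adamts12 of -0.19 ± 0.04 (adjusted p = 0.0115) and Adam9 of -0.15 ± 0.03 (adjusted p = 0.00563). The KO hearts of lower EF thus had the higher levels of these 4 genes. Adamts10 had a slope of -0.14 ± 0.04 (adjusted p = 0.0374), and 2 Adam11 probes had slopes of 0.10 (adjusted p = 0.0338 and 0.0473). With chip as a block Adamts2 on 3 probes, Adamtsl2 and Adam9 stayed past the threshold. Adam19 had a slope of -0.04 ± 0.04 (adjusted p = 0.629). Within WT no member probe was called, 5 had an unadjusted p under 0.05, and 0.00393% of all kept probes were called.

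KO high EF replicate 13 had an EF of 76.4%, inside the WT range. Its levels were outside the WT range of levels for 5 of the 6 members with the smallest p. They were 11.44 for Adamts2, 8.10 for Adamtsl2, 10.21 for Adam19 and 8.07 for Adamts12, all above every WT heart. For Adamts7 the level was 7.82, below every WT heart. For Adam9 this heart had 10.14, inside the WT range. This is 1 heart, given as a description, and the 6 members were picked in fits that included it. The share of all kept probes on which it lay outside the WT range was not computed.

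**Figure D4:**
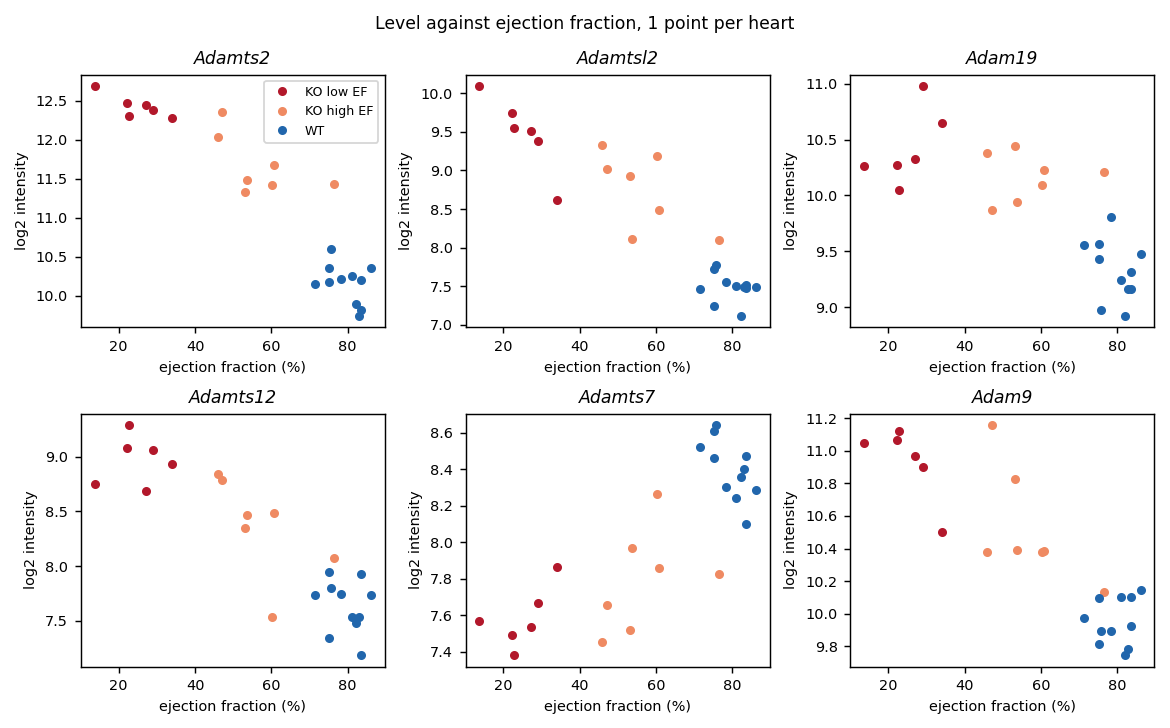
Log2 intensity (vertical axis) against EF in percent (horizontal axis) for the 6 members with the smallest p, 1 point per heart, coloured by group. The KO high EF heart at 76.4% lies among WT hearts in EF but above them for Adamts2, Adamtsl2, Adam19 and Adamts12, and below them for Adamts7.

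The genes that the members act on or are held back by were described from lists chosen with earlier results of these data known. Shares of these lists are thus descriptions and not a test. Each gene was given by 1 probe, the brightest kept one. On this footing 26.2% of all genes were called for KO low EF against WT, with 13.6% of all genes higher, and 15.7% for KO high EF against WT, with 9.66% higher. Without replicate 11 the shares called were 35.3% and 20.0%. Of the inhibitors, 3 of 5 measured rose in KO low EF hearts and 1 in KO high EF. Timp1, a secreted metalloprotease inhibitor, had a log2 difference of 4.03 ± 0.38 in KO low EF hearts (adjusted p = 1.74e-08) and 3.59 ± 0.37 in KO high EF (adjusted p = 2.49e-07), with 11.73 to 14.09 in KO low EF hearts, 11.54 to 13.47 in KO high EF and 7.94 to 10.07 in WT hearts. Timp3, the matrix-bound inhibitor that acts on ADAMs and ADAMTS enzymes, rose by 0.45 ± 0.15 in KO low EF (adjusted p = 0.028) and differed by 0.04 ± 0.14 in KO high EF (adjusted p = 0.898). Reck, a membrane-anchored inhibitor, rose by 0.39 ± 0.13 in KO low EF (adjusted p = 0.0233, and 0.0664 with chip as a block). Timp4 was not called. Timp2 was called without replicate 11, on which its probe had 6.08, with 1.08 in KO low EF (adjusted p = 2.58e-09) and 0.69 in KO high EF hearts (adjusted p = 1.29e-05).

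Proteoglycans and hyaluronan partners had 4 of 8 measured genes higher in each KO group and none lower. Biglycan (Bgn), a small proteoglycan of the matrix, rose by 1.89 ± 0.12 in KO low EF, versican (Vcan) by 1.45 ± 0.18, decorin (Dcn) by 0.52 ± 0.09 and the hyaluronan synthase Has1 by 0.40 ± 0.13. The aggrecan gene (Acan) was near the median and not called. Of the other known ADAMTS substrates, 11 of 17 measured rose in KO low EF hearts and 8 in KO high EF, with none lower, and without replicate 11 the counts were 12 and 10. Col1a1, whose product is a procollagen that Adamts2 trims, had log2 differences of 2.33 ± 0.14 in KO low EF hearts (adjusted p = 2.16e-11) and 1.75 in KO high EF (adjusted p = 5.27e-09). Fbn1, encoding fibrillin-1, had 2.25 ± 0.12 and 1.55 in KO low EF and KO high EF. The list's median log2 difference was 0.95 in KO low EF hearts and 0.43 in KO high EF, beside 0.0014 and 0.01 over all genes.

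**Figure D5:**
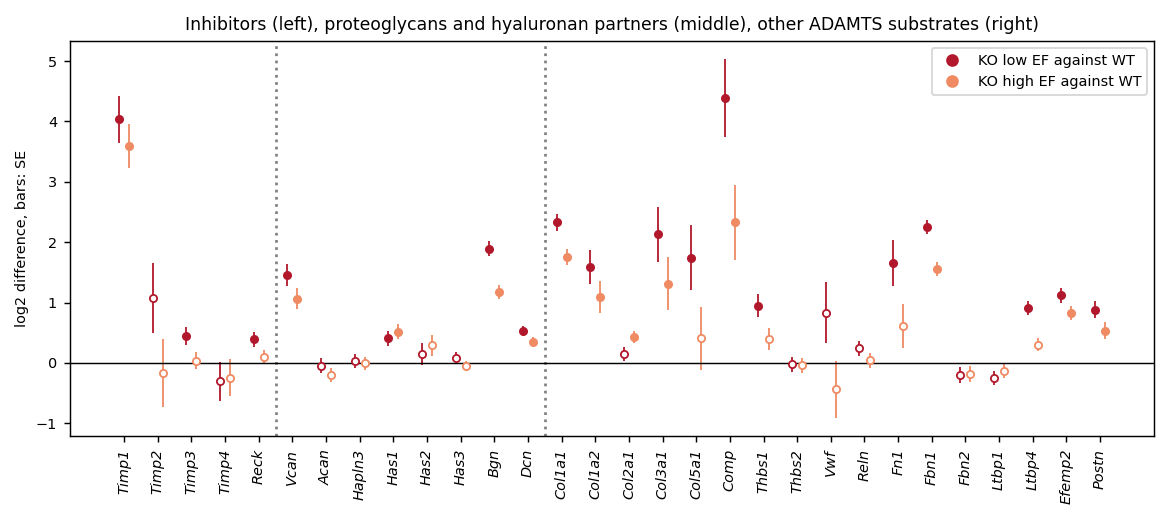
Log2 difference from WT with its SE for the measured inhibitors, proteoglycans and hyaluronan partners, and other ADAMTS substrates, in KO low EF and KO high EF hearts. Filled points have an adjusted p under 0.05. Timp1 and Comp reach 4.03 and 4.39 in KO low EF, and no filled point lies below 0.

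Of 27 measured membrane proteins that ADAMs shed, EGF-type ligands apart, 13 rose and 1 fell in KO low EF, and 11 rose in KO high EF. Without replicate 11, 17 rose in KO low EF and 13 rose in KO high EF. The membrane chemokine Cxcl16 (0.84, adjusted p = 8.29e-08), the adhesion molecule Vcam1 (0.53, adjusted p = 1.9e-05), Il6ra and Sdc4 were then called in KO low EF as well. Those higher in KO low EF included the hyaluronan receptor Cd44 (1.41 ± 0.15), the receptor kinase Axl (1.12 ± 0.10), the membrane chemokine Cx3cl1 (1.05 ± 0.12) and the TNF receptor Tnfrsf1a (0.62 ± 0.14). Of 6 measured EGF-type ligands, Hbegf rose by 1.37 ± 0.22 and Nrg1 by 0.70 ± 0.11 in KO low EF, and Egf fell by 1.06 on the log2 scale. Of 13 measured genes for ADAM maturation and trafficking, Tspan17, a tetraspanin partner of ADAM10, rose by 0.99 ± 0.09, Tspan33, another such partner, fell by 0.60 and the rest were not called in KO low EF. Without replicate 11, Rhbdf1, which aids ADAM17 maturation, was also called (0.70, adjusted p = 3.79e-09), as was Tspan14, another ADAM10 partner (0.23, adjusted p = 0.0285). Lgi1, encoding a secreted ligand of ADAM22 and ADAM23, differed by -1.13 ± 0.14, Lgi3 by -0.56 ± 0.11 and Lgi4 by 0.84 ± 0.13, all called. Of the O-fucosylation genes Pofut2 and B3glct, which modify thrombospondin repeats, neither was called, and Pofut2 was called in KO low EF without replicate 11 (0.24, adjusted p = 0.00837).

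Markers of several cell types moved along the same groups. The 7 macrophage markers all rose in both KO groups, and their mean level ran from 10.22 to 10.43 in KO low EF, from 9.92 to 10.51 in KO high EF and from 9.12 to 9.50 in WT hearts. Of 8 fibroblast markers, 6 rose in KO low EF hearts and 7 in KO high EF, and without replicate 11 all 8 rose in both. Their mean level ran from 11.22 to 11.56 in KO low EF, from 10.83 to 11.54 in KO high EF and from 10.13 to 10.48 in WT hearts. That list shares Col1a1, Col1a2 and Dcn with the substrate lists. Of 5 cardiomyocyte markers, 3 fell in KO low EF hearts and 2 in KO high EF (3 without replicate 11), with mean levels from 14.48 to 14.63 in KO low EF, from 14.62 to 14.83 in KO high EF and from 14.83 to 15.13 in WT hearts. The part of these shifts in the members' differences was not tested.

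With all hearts, none of 7 endothelial markers was called, and 2 of 6 smooth muscle and pericyte markers rose in KO low EF. Without replicate 11, 1 endothelial marker was lower in each KO group (Tie1 in KO low EF, Pecam1 in KO high EF), and 3 smooth muscle and pericyte markers rose in KO low EF. Of the cartilage markers, which were included because Comp and several ADAMTS substrates are cartilage genes, Sox9 rose by 1.88 ± 0.21 in KO low EF, and Col2a1 and Acan lay near the array median and were not called there. Sox9 (1.19, adjusted p = 0.000157) and Col2a1 (0.43, adjusted p = 0.0053) rose in KO high EF. The erythroid gene Alas2 was lower in KO high EF (-1.08, adjusted p = 0.0399). Markers of T cells, B cells, mast cells, neutrophils, adipocytes and male germ cells were not called in either KO group. With all hearts no atrial marker was called, and in the hearts that held them their part in the members' values was not tested beyond leaving those hearts out. Cardiomyocyte genes lay at the top of the scale, as the tissue label would have them, such as the myosin gene Myh6, whose group means were 15.90 in KO low EF hearts, 15.93 in KO high EF and 15.94 in WT.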

How the data were processed

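RNA of 24 left ventricles was measured on Illumina mouse arrays, and the submitters' processing notes name BeadStudio (version not given) and R 2.8.0. The authors deposited unnormalized fluorescence intensity on a linear scale, used here, and normalized values on a log2 scale, used as an alternative. The authors' summary table holds group means on a log2 scale, standard deviations and a p-value per probe, and was used only to name 13 member probes that the platform's annotation does not; it was joined through group means and standard deviations, for 45281 of 45281 probes. Both sources name 79 members, 76 of them alike. All 110 members named by the platform matched a RefSeq symbol of GRCm38.p6.

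Intensities were background-corrected with normexp (offset 50), put on the log2 scale and then quantile-normalized, using limma 3.58.1 in R 4.3.3. Probes above their array's median on at least 6 arrays were kept. Group means were fitted with lmFit and eBayes, two-sided, with Benjamini-Hochberg adjustment over all 25425 kept probes and a threshold of 0.05. Errors printed after ± are standard errors of log2 differences. EF slopes are per 10 points. The number of arrays limits the precision. The procedure was tested on simulated data.

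The members and lists were chosen with earlier results of these data known. Named genes were those called in a group comparison, each by its probe with the smallest p, and a set of well-known members. Those of the set that were not called are given by their brightest kept probe. Replicates are labelled as separate hearts. Groups share replicate numbers, but over 11 pairs the correlations of same-numbered hearts ran from -0.0111 to 0.183 and 2 were over 0.1, so the numbers were not taken to pair hearts. Alternatives were other normalizations, filters, blocks, array weights and leaving out hearts. Hearts with a mean atrial marker level over 8 were left out together in an alternative chosen after seeing the data.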

Additional observations from a re-analysis of the deposited data

Results flagged for a closer look

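The KO low EF and KO high EF hearts were tested for a lowest or highest heart far from the others, and WT hearts were not. In 36 such groups of hearts of 18 genes, 4 stood out, where chance gives about 1 in 20. KO low EF replicate 6 had 10.50 for Adam9, against 10.90 for the nearest heart of its group. KO high EF replicate 11, the array that stands apart, gave the other 3, with 6.02 for Adam15 against 10.65, 6.11 for Adamts10 against 6.76, and 11.50 for Adamts9 against 10.71 for the nearest heart.

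The effect against WT differed between KO low EF and KO high EF hearts for 4 genes, by the test of the difference itself in limma. The log2 difference was 0.75 for Adamts2 (adjusted p = 0.00797), 0.75 for Adamtsl2 (adjusted p = 0.0432), 0.61 for Adamts12 (adjusted p = 0.0458) and 0.51 for Adamts10 (adjusted p = 0.0422). This is the comparison between the KO groups given above and not a second test, as the WT mean cancels in it. With chip as a block only Adamts2 stayed past the threshold.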

How the results depend on the processing

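Over 38 alternatives, 35 planned and 3 added after seeing the data (median scaling and the authors' values, each without KO high EF replicate 11, and no hearts with atrial markers), the count of member probes called ran from 12 to 18 for KO low EF against WT, from 8 to 10 for KO high EF against WT and from 11 to 17 for all KO against WT, and was 0 for the WT slope throughout. Leaving out single hearts gave 13 to 17, 9 to 9, 11 to 17 and 0.

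For KO low EF against KO high EF the 5 calls became 1 with chip as a block, 3 with chip as a block and without replicate 11, 0 with median scaling with or without replicate 11, 2 with no filter, 0 with only the groups compared and 11 with array weights. Leaving out single hearts gave 1 to 8, and moved the count by over 1.5 times for KO low EF replicates 1 to 5, KO high EF replicates 8 to 10, 12 and 13, and WT replicates 2, 3, 4, 6, 9, 10 and 11. The Adamtsl2, Adamts12 and Adamts10 calls there were lost without any 1 of 16, 17 and 10 hearts. For the EF slope within KO the 9 calls became 5 with chip as a block, 2 with median scaling, 5 with median scaling without replicate 11 and 5 with only the groups compared, and single hearts left out gave 6 to 9. With the replicate number as a block, the counts were 14 for KO low EF against WT, 9 for KO high EF against WT and 11 for all KO against WT. They were 0 both for the EF slope within KO and for KO low EF against KO high EF. The KO hearts all have different numbers, so this block compares them only through WT hearts, and the 0 counts decide little. Of the 11 pairs of same-numbered hearts, 2 correlated best with their own number.

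Of the named genes' results, 6 reversed, all for Adam15 in all KO against WT, where -0.05 became -0.12 to 0.29 with single hearts left out, the highest being without replicate 11, 0.30 with chip as a block and without it, 0.28 with array weights, 0.40 with median scaling without it 0.27 on the authors' values without it and 0.30 without the hearts with atrial markers. The cause of the other shifts was not tested. Of the kept members, 24 of 53 had a mean under 7, near the array median, where signal over background limits what can be measured.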
